A study of Mus musculus with 6 samples.

Results

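The genes described here are 10 chaperones and disulfide-forming enzymes of the endoplasmic reticulum (ER), the compartment in which secreted and membrane proteins fold: Hspa5, Hsp90b1, Hyou1, Calr, Canx, Pdia3, Pdia4, Pdia6, P4hb and Ero1l. They were chosen by name, as the array probe sets whose single gene symbol is one of the 10, which gave 22 of the 22626 probe sets that are not array controls and 10 of the 12393 genes with such a probe set. The cells were myotubes of C2C12, an established mouse muscle line, cultured in 20% fetal bovine serum until confluent and differentiated for 5 days in 2% horse serum. The BSA group (3 arrays) received 1% bovine serum albumin for 16 h, and the palmitate group (3 arrays) received 500 µM palmitate, a saturated fatty acid delivered bound to fatty acid-free albumin, for 16 h. The labels name no engineered allele, both groups are the same cell line, and nothing in the labels says whether the replicates were separate cultures, so each p-value below measures only the spread between these arrays, which may be technical. The comparison asks how strongly palmitate moved each gene, and whether the size of the change went with the signal the gene had without palmitate.

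A protein entering the ER is met by Hspa5 (BiP), an Hsp70 that binds exposed hydrophobic stretches and releases them when its nucleotide is exchanged. Glycoproteins are held by the lectins calnexin and calreticulin, and disulfide bonds are made by the protein disulfide isomerases, which Ero1 enzymes reoxidise. When unfolded protein accumulates, the unfolded protein response, run by the sensors ATF6, IRE1 and PERK, is known to raise transcription of many of these genes. Muscle keeps a specialised ER, the sarcoplasmic reticulum, that also stores calcium, and calreticulin and Hsp90b1 are among the calcium-binding proteins of the lumen.

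All 10 genes had a higher mean signal with palmitate, and for each of them the lowest palmitate array lay above the highest BSA array. Such a separation was found for 15.9% of the 7931 genes tested. A gene was counted as called when its Benjamini-Hochberg adjusted p from limma, taken over all 13575 probe sets tested, was under 0.05, and each gene was represented by whichever of its probe sets was brightest over the 6 arrays. By this rule 9 of the 10 rose and 0 fell, against 7.92% of all genes tested that were called higher and 12.3% that were called lower. The 10 genes are bright, so a second background was also taken. It held the 2196 genes whose mean log2 signal over all 6 arrays, palmitate arrays included, was at least that of the dimmest of them. In that background 14.3% were called higher. The median log2 fold change was 0.97 for the 10 genes, from 0.44 to 1.85, beside -0.05 for all genes tested. At least a 2-fold increase with a call was found for 5 of the 10, beside 2.48% of all genes. P4hb was the gene without a call. The deposited arrays had been scaled to nearly equal average signal, and labelled control RNAs that are added to every sample read 0.33 log2 units higher on the palmitate arrays. Scaling to these hybridisation controls lowers every fold change by that amount. Of the 13575 probe sets tested, 404 were then called higher and 3169 lower, in place of 1172 and 1437. Of the 10 genes, 6 were then called. Those that lost their call were Hyou1 (0.55, adjusted p = 0.0516), Calr (0.25, adjusted p = 0.248) and Canx (0.24, adjusted p = 0.287), P4hb stood at 0.10, and all 10 values stayed above 0.

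**Figure D1:**
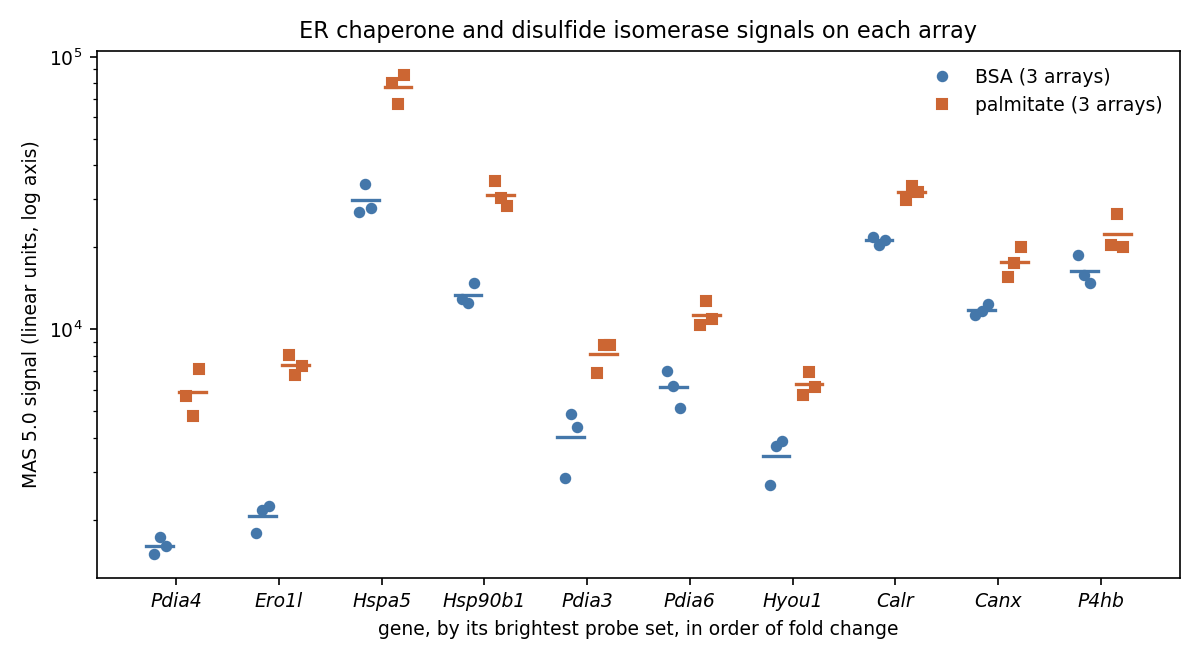
MAS 5.0 signal (log axis, linear units) of each of the 10 genes by its brightest probe set, with BSA arrays as blue circles, palmitate arrays as orange squares and a bar at each group mean (3 arrays each). Genes run from the largest fold change on the left (Pdia4) to the smallest on the right (P4hb), and no palmitate array falls within the BSA range of its gene.

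Hspa5 and Hsp90b1, the lumenal Hsp70 and Hsp90, rose 2.62-fold and 2.33-fold by their brightest probe sets. Both promoters are shown because they hold an exact copy of the ER stress response element, spelled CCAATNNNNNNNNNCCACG, in which CCAAT is bound by NF-Y and CCACG by ATF6 or XBP1. The sequences are the 250 bases before the start of transcription from RefSeq on GRCm38.p6, with the fixed letters of each match in capitals: chr2:34771840-34772089 on the plus strand for Hspa5 and chr10:86705445-86705694 on the minus strand for Hsp90b1. Of the matches in Hsp90b1, the first reads in the direction of the gene and the second on the opposite strand, where the element appears as its reverse complement.
Hspa5: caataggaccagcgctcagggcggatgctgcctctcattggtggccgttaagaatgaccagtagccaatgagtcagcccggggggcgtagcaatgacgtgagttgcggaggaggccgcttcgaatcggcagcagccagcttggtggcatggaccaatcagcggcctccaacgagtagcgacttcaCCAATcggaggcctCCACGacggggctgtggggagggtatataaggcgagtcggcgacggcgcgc
Hsp90b1: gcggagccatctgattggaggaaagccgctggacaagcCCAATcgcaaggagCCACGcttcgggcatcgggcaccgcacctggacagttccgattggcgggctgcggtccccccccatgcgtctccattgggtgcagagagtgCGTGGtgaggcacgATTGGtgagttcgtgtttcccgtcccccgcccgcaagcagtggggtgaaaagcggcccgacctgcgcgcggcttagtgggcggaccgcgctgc

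For Hspa5 the signal of the brightest probe set (1416064_a_at) was 26961, 34231 and 27878 on the BSA arrays and 79882, 67299 and 85958 on the palmitate arrays. The group means were 29690 ± 3959 and 77713 ± 9517 (SD, n = 3), a log2 fold change of 1.39 ± 0.14 (SE, adjusted p = 4.1e-05). By mean palmitate signal this probe set ranked 2 from the top of all probe sets that are not array controls. The highest single signal on any array was 89564, so this fold change was read at the bright end of the range. Every palmitate array was at least 1.97 times every BSA array. A second Hspa5 probe set (1427464_s_at) read 9997, 10111 and 9828 with BSA and 45132, 42385 and 40167 with palmitate, which is 4.26-fold (2.09 ± 0.12).

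Hsp90b1 (GRP94) completes the folding of a restricted set of secreted and membrane proteins. Its signal (1415889_a_at) was 12943, 12435 and 14748 with BSA and 34959, 30363 and 28220 with palmitate. The log2 fold change was 1.22 ± 0.13 (adjusted p = 8.4e-05). The second probe set (1438040_a_at) rose 2.97-fold, from 4784, 7370 and 7624 to 19870, 17506 and 20249, with BSA replicate 1 the low array of its group.

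Hyou1 (GRP170), a large Hsp70 relative that exchanges nucleotide on BiP, rose less on its brightest probe set. That probe set (1423291_s_at) read 2685, 3728 and 3885 on the BSA arrays and 5746, 6983 and 6112 on the palmitate arrays. The increase was 1.85-fold (0.89 ± 0.17, adjusted p = 0.00426). A second probe set (1423290_at) gave 2.50-fold, from 1094, 1110 and 1058 to 2239, 3404 and 2630. The remaining one fell below the filter on dim signal and was not tested. It read 104, 207 and 84.6 with BSA and 364, 560 and 622 with palmitate, and these groups did not overlap either.

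By their brightest probe sets, the glycoprotein lectins moved least among the called genes. Calreticulin (Calr), the soluble lectin and a main calcium buffer of the lumen, read 21780, 20448 and 21291 with BSA and 29916, 33580 and 31976 with palmitate on its brightest probe set (1417606_a_at). This was a 1.50-fold increase (0.59 ± 0.12, adjusted p = 0.00422), and both other Calr probe sets were called higher at 1.57-fold and 1.53-fold. BSA arrays varied little for Calr, with a coefficient of variation of 3.18%, the lowest of the 10 genes.

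Calnexin (Canx), the membrane-anchored lectin of the same cycle, read 11302, 11699 and 12362 with BSA and 15482, 17448 and 20085 with palmitate (1415692_s_at). The increase was 1.49-fold (0.58 ± 0.13, adjusted p = 0.0112). Palmitate replicate 3 was the highest array, and without it the log2 fold change was 0.48 with an adjusted p = 0.0576. The call was also lost when limma's variance prior had no intensity trend (adjusted p = 0.0571). A second Canx probe set (1422845_at) rose 2.21-fold, from 2244, 2801 and 3056 to 5421, 6815 and 5643. The dimmest one (1428935_at) had a log2 fold change of 0.62 ± 0.25 (adjusted p = 0.109) and was not called.

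Pdia3 (ERp57), the disulfide isomerase that works on glycoproteins held by the 2 lectins, has a single probe set (1423423_at). It read 2848, 4871 and 4360 with BSA and 6882, 8751 and 8736 with palmitate, and replicate 1 was the low array in both groups. The increase was 2.06-fold (1.04 ± 0.20, adjusted p = 0.00385). The coefficient of variation over the BSA arrays, 26.1%, was the highest of the 10 genes.

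Among the other disulfide isomerases the response was uneven. Pdia4 (ERp72) had the largest change of the 10 by brightest probe set, 3.61-fold. It went from 1497, 1729 and 1593 to 5698, 4787 and 7118 (1416497_at, log2 fold change 1.85 ± 0.18, adjusted p = 3.6e-05). Pdia6 (P5), which is found in complexes with BiP, rose 1.86-fold, from 7021, 6171 and 5153 to 10397, 12641 and 10854 (1423648_at, 0.89 ± 0.15, adjusted p = 0.00186). Each of these 2 genes has a second probe set below the filter whose groups overlapped. That of Pdia4 read 121, 95.0 and 64.6 with BSA and 190, 168 and 45.4 with palmitate. That of Pdia6 read 244, 223 and 292 with BSA and 181, 316 and 296 with palmitate.

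P4hb, the founding protein disulfide isomerase and also the beta subunit of collagen prolyl 4-hydroxylase, read 18710, 15760 and 14785 with BSA and 20432, 26409 and 20077 with palmitate (1437465_a_at). The groups did not overlap, but the lowest palmitate array was only 1.07 times the highest BSA array. The log2 fold change was 0.44 ± 0.15 (1.35-fold), and the adjusted p = 0.0580 missed the threshold. Replicate 1 was the high BSA array, and without it the adjusted p was 0.0345. The call was also made with the arrays set equal at the 75th percentile (adjusted p = 0.0409), with the stricter filter at the 60th percentile (adjusted p = 0.0470) and with the probe sets of each gene averaged (adjusted p = 0.0478).

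Ero1l (Ero1a in current nomenclature) is the oxidase that passes electrons from the isomerases to oxygen, and it rose 3.58-fold. Its brightest probe set (1449324_at) read 1792, 2169 and 2242 with BSA and 8023, 6811 and 7341 with palmitate (1.84 ± 0.16, adjusted p = 1.68e-05). Both other Ero1l probe sets were called, at 3.01-fold and 3.91-fold. By their brightest probe sets, Ero1l differed from Pdia4 by 0.01 on the log2 scale, while P4hb stood 1.41 below Pdia4.

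Over all probe sets of the 10 genes, 19 passed the filter on dim signal, and 17 of these were called higher, beside 8.63% of all probe sets tested. Both exceptions, the single P4hb probe set and the dimmest Canx one, had positive fold changes. The 3 probe sets below the filter got no test, so the 19 are not all of them.

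**Figure D2:**
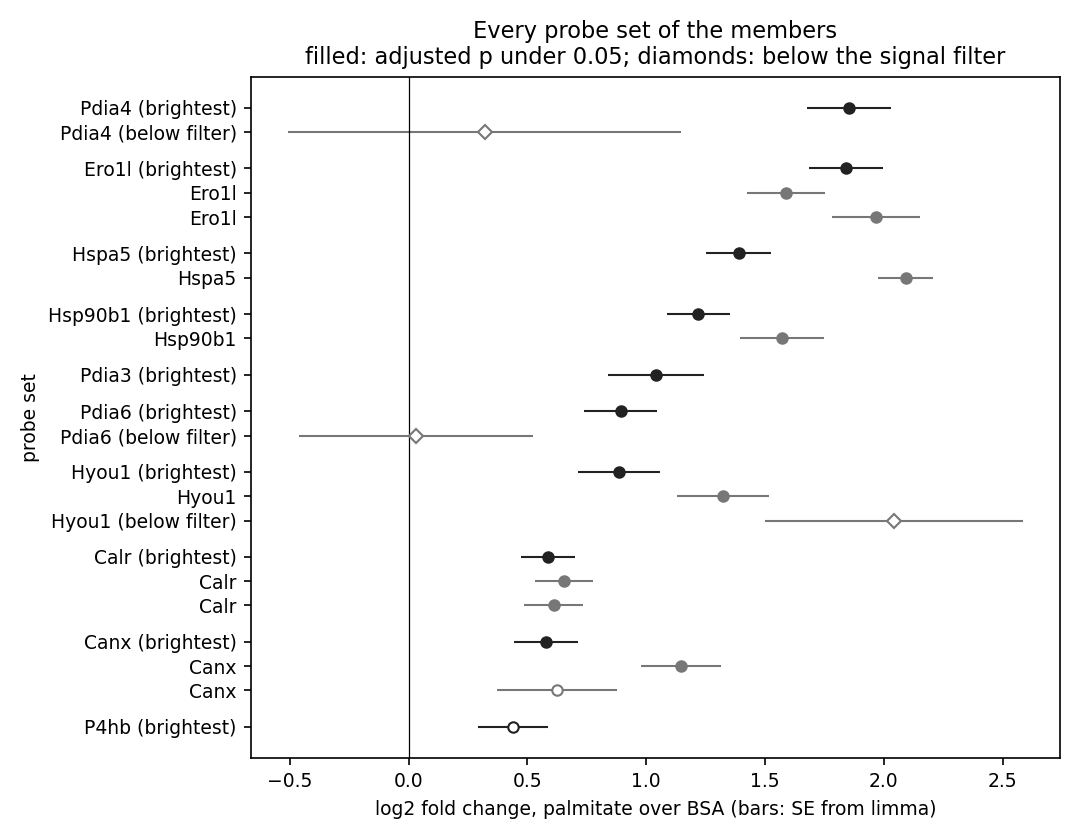
Log2 fold change (palmitate over BSA) with its SE from limma for all 22 probe sets of the 10 genes, grouped by gene. Black marks the brightest probe set, grey the others, filled symbols an adjusted p under 0.05, and diamonds the 3 probe sets below the filter; in Hspa5, Hsp90b1 and Hyou1 the dimmer tested probe set has the larger change.

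Probe sets of 1 gene did not give 1 fold change. In 6 genes a dimmer tested probe set could be set against the brightest, giving 9 pairs, and the dimmer one had the larger change in 8 of them. For Hspa5 the dimmer probe set exceeded the brighter by 0.70 ± 0.16 on the log2 scale, and for Canx 1422845_at did so by 0.57 ± 0.17. In both cases the ratio of the 2 probe sets on the palmitate arrays did not overlap that on the BSA arrays (exact permutation test, two-sided, p = 0.1, the smallest that 3 against 3 can give, and 0.45 after adjustment over the 9 pairs). The differences were 0.35 ± 0.23 for Hsp90b1 and 0.44 ± 0.20 for Hyou1, with overlapping groups, and the exception was an Ero1l probe set at -0.25 ± 0.21. For Calr the differences were only 0.07 ± 0.04 and 0.02 ± 0.06. They were 0.05 ± 0.12 for the dimmest Canx probe set and 0.13 ± 0.17 for the other Ero1l one, again with overlapping groups. The larger change on the dimmer probe set was therefore clear in some genes only. These comparisons were chosen after the values were seen. The same direction was common elsewhere: of 129 other genes called higher by both their brightest and their dimmest tested probe set, 75.2% had the larger change on the dimmest. That share depends on how genes are chosen, since it was 42.8% of 283 genes called by the brightest probe set alone. The fold change given for a gene is therefore that of 1 of its probe sets.

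Ordered by the fold change of their brightest probe sets, the genes ran Pdia4, Ero1l, Hspa5, Hsp90b1, Pdia3, Pdia6, Hyou1, Calr, Canx and P4hb. To set neighbours against their spread, the log2 ratio of each pair of neighbours was taken on every array and compared between groups. The ratio groups did not overlap for 2 of the 9 neighbouring pairs. Ero1l gained 0.45 ± 0.13 over Hspa5, and Hyou1 gained 0.30 ± 0.19 over Calr (exact permutation test, two-sided, p = 0.1 and 0.45 adjusted over the 9 pairs for both). The ratio groups of the other 7 pairs overlapped. With 3 arrays against 3 no pair could pass the threshold, and the neighbours were taken from the same fold changes, so none of these orders is settled by a test. The place of Hspa5 also turns with its probe set: with the second one (2.09 ± 0.12) it would come before Pdia4 (1.85 ± 0.18) and Ero1l (1.84 ± 0.16). Other places turn as well. Canx by 1422845_at (1.15 ± 0.17) would come before Pdia3 (1.04), and Hyou1 by 1423290_at (1.32 ± 0.19) before Hsp90b1 (1.22). Hsp90b1 by 1438040_a_at (1.57 ± 0.18) would come before Hspa5 (1.39). The ratios of neighbours within an array do not depend on a scaling factor applied to a whole array.

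The arrays of a group differed little for the 10 genes as a whole. Their mean log2 deviation from the group mean was -0.09, 0.07 and 0.02 on BSA replicates 1, 2 and 3, and -0.05, 0.01 and 0.04 on palmitate replicates 1, 2 and 3. BSA replicate 1 was low for Pdia3, Hyou1 and Ero1l and high for P4hb and Pdia6, so no array was low throughout.

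The size of the change was also set against the signal without palmitate. Over the 10 genes the log2 fold change had a Spearman correlation of -0.45 (Pearson -0.59) with the mean log2 BSA signal, the dimmest genes at baseline (Pdia4 and Ero1l) having the largest changes. The fold change and the basal signal share the BSA arrays, which ties them together. With the basal signal from 1 BSA array and the fold change from the other 2, the Spearman values were -0.44, -0.55 and -0.50. Against the mean signal over all 6 arrays it was -0.38. The value rests on few genes: it was -0.25 without Pdia4, the same without Ero1l, and -0.72 without Hspa5, which combined a high basal signal with a large change. Probe set brightness also depends on the probes and not on abundance alone, so this order is one of signals and not of transcripts per cell.

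**Figure D3:**
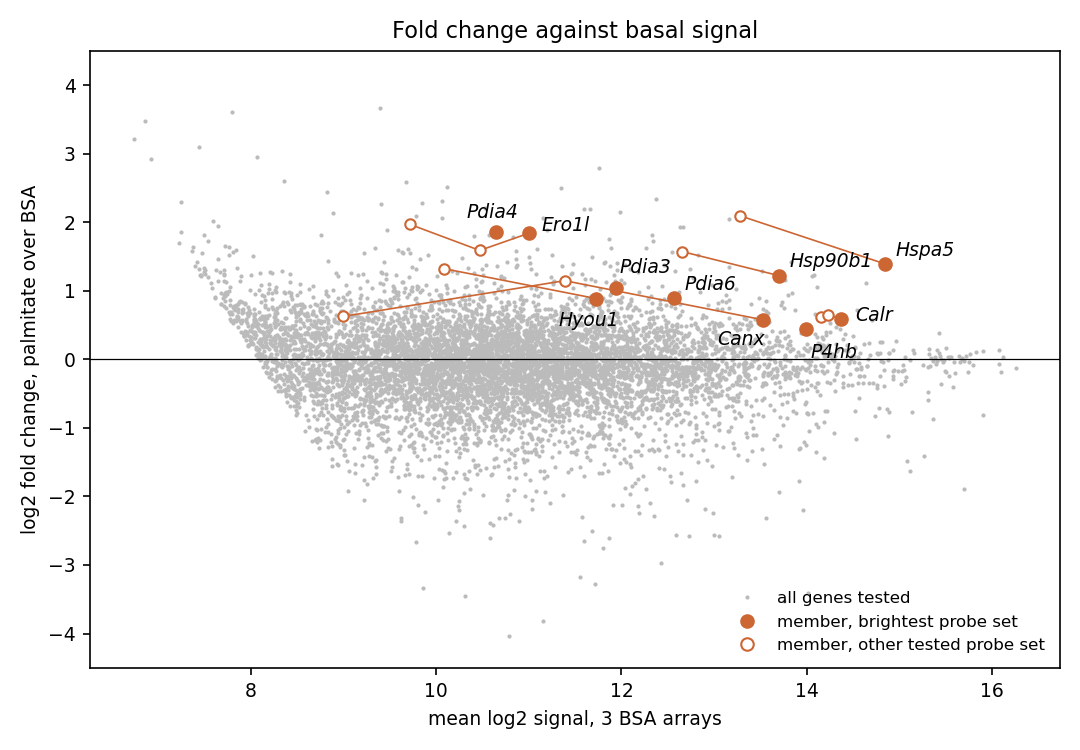
Log2 fold change (palmitate over BSA) against mean log2 signal on the 3 BSA arrays for all 7931 genes tested (grey) and the 10 genes (orange, filled for the brightest probe set, open for other tested probe sets, joined by lines within a gene). The 10 genes lie above 0, and Hspa5 stands at the right with a change of 1.39, above Calr and P4hb.

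The same correlation was -0.28 over the 69 tested genes of 7 other lists of ER folding, retrieval and degradation genes, and -0.11 over all 7931 genes. Against the mean of all 6 arrays these were 0.02 and 0.06. No p is given for any of these, since genes are not independent replicates.

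Promoters were available for 9 of the 10 genes in the RefSeq table, which lists windows of 300 bases, 250 before and 50 after the start. Hyou1 had none. The ER stress response element was searched on both strands and was found in 39 of 32851 promoters (0.119%). Of the 9 promoters here, 5 held it, with 6 matches in all. The element is known from genes of the unfolded protein response, so its share in these 9 promoters is a description and not a test. The matches outside Hspa5 and Hsp90b1, read along the element, were at chr8:84847075-84847093 (Calr, opposite strand to the gene), chr11:50325800-50325818 (Canx) and chr12:17266491-17266509 (Pdia6). They are shown with their fixed letters in capitals so that the 9 free bases between them can be compared.
Calr: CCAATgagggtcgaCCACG
Canx: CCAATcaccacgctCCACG
Pdia6: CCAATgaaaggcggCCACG

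Their distances before the start were 65 to 47 bases in Hspa5, 212 to 194 and 107 to 89 in Hsp90b1, 162 to 144 in Calr, 145 to 127 in Canx and 98 to 80 in Pdia6. Allowing 1 of the fixed letters to change added Pdia3 and Pdia4, so that 7 of 9 promoters matched, beside 494 of all promoters (1.50%). These matches lay at chr2:121413873-121413891 for Pdia3, 29 to 11 bases before the start, and at chr6:47813602-47813620 for Pdia4, 108 to 90 bases before it on the opposite strand.
Pdia3: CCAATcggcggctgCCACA
Pdia4: CCAATcacgggctgCCACT

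P4hb and Ero1l had no match at either level, which says only that these letters are not in this window. By brightest probe sets, the largest changes of the 9 genes (Pdia4 and Ero1l) and the smallest (P4hb) were on promoters without an exact match. The 5 with one ran from 0.58 (Canx) to 1.39 (Hspa5). The second Hspa5 probe set, at 2.09, exceeded both Pdia4 and Ero1l. Other elements searched were ER stress response element II (ATTGG, any base, then CCACG, 0.0365% of promoters), the core of the unfolded protein response element (TGACGTGG, 0.676%) and the C/EBP-ATF element (TTGCATCA, 0.895%), none of which was in any of the 9. A match is a string of letters and not a measured binding site.

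**Figure D4:**
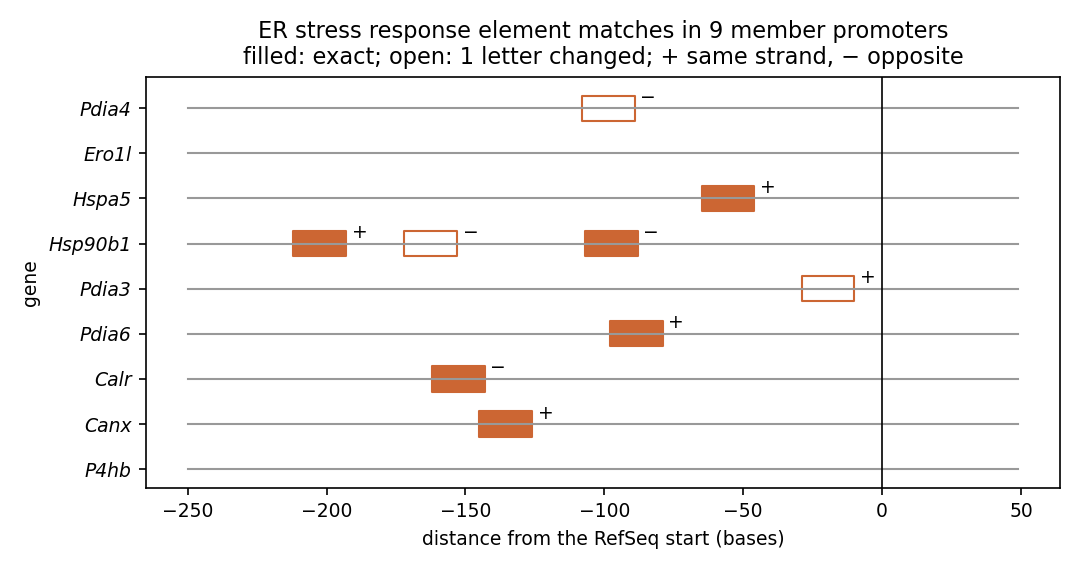
Position of ER stress response element matches, in bases from the RefSeq start, in the promoter windows (grey lines) of 9 of the 10 genes, ordered by fold change. Filled boxes are exact matches, open boxes have 1 fixed letter changed, and + and − give the strand relative to the gene; Hsp90b1 has 2 exact matches, and Ero1l and P4hb have none of either kind.

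Exact matches occurred in 13 genes tested on the array. The 5 described above are among them and were chosen with earlier results of these data known, so they are left out of the count. Of the 8 others, 5 (62.5%) were called higher and 0 lower, beside 7.80% called higher of the 6465 tested genes with a promoter in the table. Those called higher were Creld2 (2.50 ± 0.14), Dnajc3 (1.49 ± 0.18), Syvn1 (1.42 ± 0.20), Alg12 (1.23 ± 0.30) and Ero1b (1.07 ± 0.33, the gene that the array annotation names Ero1lb). The Alg12 call was lost without BSA replicate 2 or palmitate replicate 3 (adjusted p up to 0.0628), and that of Ero1b in 9 alternatives (adjusted p up to 0.158 without 1 array). Pan2 (0.15 ± 0.28), Adcy3 (-0.41 ± 0.23) and Spats2l (-0.57 ± 0.38) were not called.

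The wider set of ER genes was mixed. Of the 69 tested genes in the 7 other ER lists, 18 were called higher (26.1%), 9 lower (13.0%) and 42 were not called, with a median log2 fold change of 0.02. The share called lower is near the 12.3% of all genes. After scaling to the hybridisation controls the split was 11 higher and 23 lower. Of the calls at the deposited scaling, 11 higher and 6 lower were kept in all 15 alternative fits by probe set in which they were tested.

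J-domain proteins and exchange factors that work with BiP came next. Of 11 tested, 5 were called higher, 2 lower and 4 were not called (median 0.55). Higher were Sdf2l1 (2.58 ± 0.19), a binding partner of the J-domain protein Dnajb11, Manf (1.94 ± 0.13), a secreted protein that binds BiP, the J-domain proteins Dnajb9 (1.73 ± 0.17) and Dnajc3 (1.49 ± 0.18), and Dnajb11 itself (0.62 ± 0.18). The Dnajb11 call was lost in 8 alternatives, among them leaving out any 1 array except BSA replicate 1 (adjusted p up to 0.127). Lower were the nucleotide exchange factor Sil1 (-0.78 ± 0.18) and the disulfide reductase Dnajc10 (-0.79 ± 0.17). Hyou1 is the other exchange factor for BiP, and so these 2 exchange factors had changes of opposite sign. The members without a call were Dnajb12 (0.55 ± 0.25), Sec63 (0.37 ± 0.20), Sdf2 (-0.34 ± 0.14) and Dnajc1 (-0.01 ± 0.26).

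The rest of the disulfide machinery held more genes without a call. Among 14 other isomerase relatives and thiol oxidases tested, 1 was called higher, 3 lower and 10 were not called (median -0.27). Ero1lb, the second Ero1 oxidase, was the one called higher (1.07 ± 0.33, adjusted p = 0.0387), and its call was lost in 9 alternatives, among them leaving out any 1 array except palmitate replicate 2 (adjusted p up to 0.158). Lower were Vkorc1 (-1.50 ± 0.16), the vitamin K epoxide reductase, the peroxiredoxin Prdx4 (-1.08 ± 0.16) and the peroxidase Gpx8 (-0.55 ± 0.16). Prdx4 and Gpx8 use hydrogen peroxide, the product of Ero1, to oxidise isomerases. Prdx4 read 5948, 8314 and 7356 with BSA and 3411, 3407 and 3297 with palmitate, so its groups did not overlap. The Gpx8 call was lost in 7 alternatives, among them leaving out BSA replicate 2 or 3 or palmitate replicate 1 or 2 (adjusted p up to 0.114).

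**Figure D5:**
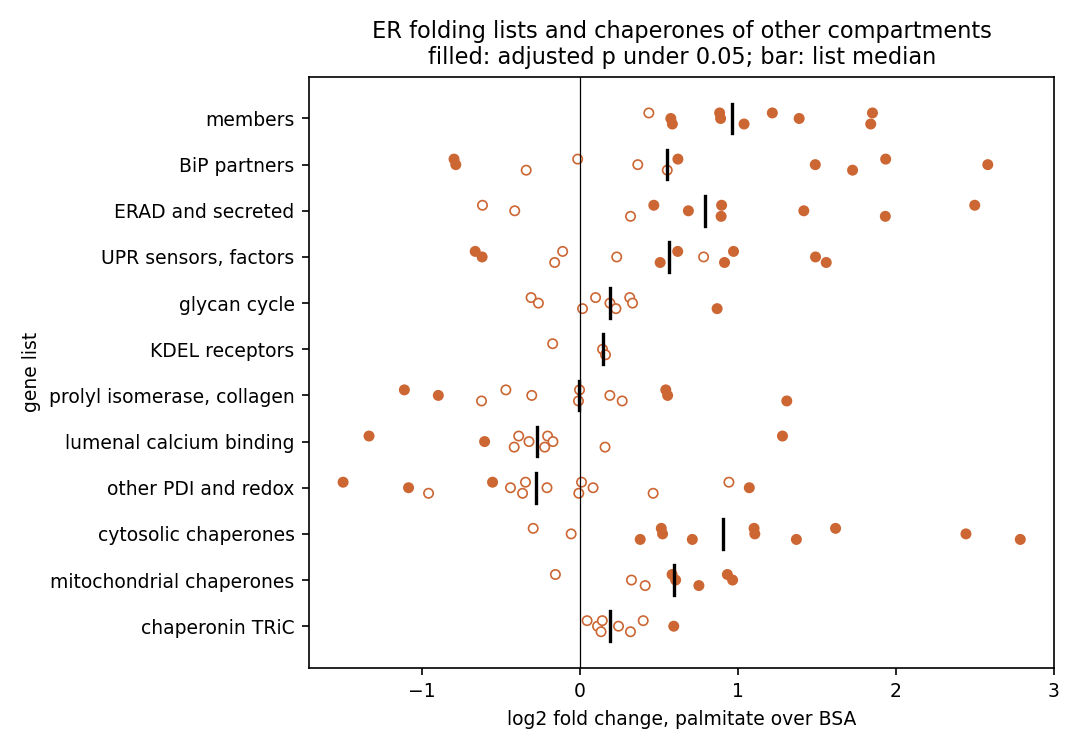
Log2 fold change (palmitate over BSA) of each tested gene in 12 lists, one point per gene by its brightest probe set, filled where the adjusted p was under 0.05, with a bar at the list median. The top row is the 10 genes described here, all above 0; the other disulfide isomerase and redox genes have a median of -0.27, and the cytosolic chaperones one of 0.91.

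Most genes listed for the calnexin and calreticulin cycle, in which glucose on glycoproteins is trimmed and re-added, were not called. Not every gene on this list acts on glucose. Of 9 tested, 1 was higher and 0 lower (median 0.19). The called gene was Edem1 (0.87 ± 0.21), which hands misfolded glycoproteins to degradation. Its call was lost after hybridisation control scaling (0.54, adjusted p = 0.104), which left 0 genes of the list higher and 1 lower. It was also lost without BSA replicate 3 (adjusted p = 0.0519) or without palmitate replicate 1 (adjusted p = 0.0595). The 3 KDEL receptors, which return escaped lumenal proteins from the Golgi, had log2 fold changes of -0.17 ± 0.25 (Kdelr1), 0.16 ± 0.22 (Kdelr2) and 0.15 ± 0.18 (Kdelr3), none of them called.

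Prolyl isomerases and collagen-modifying enzymes gave 3 higher, 2 lower and 7 not called of 12 (median -0.0039). Fkbp11 (1.31 ± 0.21), P4ha2 (0.56 ± 0.17) and the collagen chaperone Serpinh1 (0.55 ± 0.15) were higher. Fkbp7 (-1.11 ± 0.19) and the lysyl hydroxylase Plod1 (-0.89 ± 0.24) were lower. The P4ha2 call was lost in 8 alternatives. Among them were hybridisation control scaling (0.22, adjusted p = 0.488) and leaving out any 1 array except BSA replicate 1 (adjusted p up to 0.137). The Serpinh1 call was lost in 6 alternatives. Among them were hybridisation control scaling (0.21, adjusted p = 0.430) and leaving out BSA replicate 2 or 3 or palmitate replicate 2 (adjusted p up to 0.0855). The Plod1 call was lost in 4 alternatives, among them leaving out BSA replicate 1 or palmitate replicate 1 or 3 (adjusted p up to 0.0763). Of 10 other calcium-binding proteins of the lumen, 1 was higher, Nucb2 (1.28 ± 0.18), and 2 were lower, Rcn3 (-1.33 ± 0.24) and Rcn2 (-0.60 ± 0.18), the last with a call lost in 7 alternatives, among them leaving out BSA replicate 2 or 3 or palmitate replicate 2 or 3 (adjusted p up to 0.138).

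The next lists cover degradation and stress signalling. Of 10 genes of ER-associated degradation and secreted stress proteins, 7 were called higher and 0 lower (median 0.79; 5 and 2 after hybridisation control scaling), led by Creld2, Herpud1 (1.93 ± 0.13), the ubiquitin ligase Syvn1 and Selenos (0.90 ± 0.14). The 3 without a call were Ube2j1 (0.32 ± 0.16), Os9 (-0.41 ± 0.16) and Erlec1 (-0.61 ± 0.21), the last 2 being lectins. Erlec1 was called lower without BSA replicate 1 (adjusted p = 0.0251) and also without palmitate replicate 3. Of the 7 called higher, Derl2 (0.47 ± 0.15) lost its call in 11 alternatives, among them leaving out any 1 array (adjusted p up to 0.143). Sel1l (0.69 ± 0.17) lost its call in 4 (adjusted p up to 0.0573 without 1 array). Of 12 sensors and transcription factors of the unfolded protein response, 6 were higher and 2 lower (median 0.56), and 3 were higher after hybridisation control scaling. Ddit3 (1.56 ± 0.14), Ppp1r15a (1.49 ± 0.18), Atf4 (0.97 ± 0.13) and Atf6 (0.92 ± 0.18) had the smallest p-values, and the Atf6 call was lost after that scaling (0.58, adjusted p = 0.0570). The lower ones were Creb3l1 (-0.66 ± 0.16), whose call was lost without palmitate replicate 1 (adjusted p = 0.0575), and the ATF6-cleaving protease Mbtps1 (-0.62 ± 0.17), whose call was lost without any 1 array except palmitate replicate 2 (adjusted p up to 0.0971). Ern1 (0.78 ± 0.45), Atf6b (0.23 ± 0.35), Creb3 (-0.11 ± 0.18) and Creb3l2 (-0.16 ± 0.22) were not called.

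Chaperones of other compartments were listed for comparison. Of 12 cytosolic heat shock proteins, 10 were called higher and 0 lower (median 0.91). After hybridisation control scaling 6 were called higher, Hspa8, Hsp90aa1, Hspa4 and Dnaja1 losing their calls, and leaving out 1 array gave 7 to 10. The inducible Hspa1b rose most (2.79 ± 0.17), from 2806, 3446 and 4315 to 26987, 22797 and 22347. Hsph1 (1.62 ± 0.14), Dnajb1 (1.37 ± 0.14) and Hspb1 (1.11 ± 0.13) were also higher, and Hspa4l (-0.05 ± 0.16) and Hspa2 (-0.29 ± 0.35) were not called. Of 8 mitochondrial chaperones and proteases, 5 were higher and 0 lower (median 0.60; 2 higher after hybridisation control scaling), with Lonp1 (0.97 ± 0.16), Hspd1 (0.93 ± 0.12), Hspa9 (0.61 ± 0.12) and Hspe1 (0.75 ± 0.19) leading. The Hspe1 call was lost without palmitate replicate 1 (adjusted p = 0.0641), which left 3 higher, and the call of Clpp, the fifth gene, without BSA replicate 2 or 3 or palmitate replicate 1 or 2 (adjusted p up to 0.119). Hspa9 lost its call under the control scaling (adjusted p = 0.241). Dnaja3 (0.41 ± 0.16), Grpel1 (0.33 ± 0.18) and Trap1 (-0.15 ± 0.18) were not called. Only Cct7 (0.60 ± 0.16) of the 8 subunits of TRiC, the cytosolic ring that folds actin and tubulin, was called. Its call was lost in 6 alternatives. Among them were hybridisation control scaling (0.26, adjusted p = 0.355) and leaving out BSA replicate 2 or 3 or palmitate replicate 1 or 2 (adjusted p up to 0.108).

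The arrays of the series correlated at r = 0.943 to 0.959 within groups and 0.883 to 0.910 between them. The 10 myotube markers all passed the filter and none was called, with summed signals of 140566 to 228891 with BSA and 162574 to 167656 with palmitate. For each of these markers BSA replicate 1 was the highest BSA array, as for Des (19724, against 7530 and 7152 on BSA replicates 2 and 3). This widens the BSA spread behind the missing calls. After hybridisation control scaling 4 of them, Ttn, Tnnc2, Tnnt3 and Mylpf, were called lower, and Ttn was called lower without palmitate replicate 3 (-0.96, adjusted p = 0.0216). Markers of undifferentiated or dividing cells were lower for 4 of 5 tested (sums of 24273 to 28279 against 12252 to 12731; Pax7 was below the filter), and all 4 tested fibroblast-like markers were lower (62399 to 76932 against 15623 to 20665; Thy1 was below the filter). Macrophage markers summed to 907 to 1305 against 1420 to 1886, with 0 of 2 tested called (Csf1r was called higher without BSA replicate 1, adjusted p = 0.0334), and all endothelial (371 to 471 against 288 to 682) and adipocyte markers (43.1 to 432 against 133 to 334) were below the filter. In bulk RNA, fewer cells of a type and less RNA per cell cannot be told apart, and the part of these shifts in the changes of the 10 genes was not tested. Ratios of 3′ to 5′ probe sets, a sign of RNA length, were 0.21 to 0.35 (log2) with BSA and -0.20 to 0.22 with palmitate for Gapdh. For b-Actin they were 0.47 to 0.60 with BSA and 0.24 to 0.51 with palmitate. Both tended lower with palmitate, with ranges that overlapped, and the part of these ratios was not tested either.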

How the data were processed

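C2C12 myotubes were compared on Affymetrix mouse 430A 2.0 arrays, 3 with BSA and 3 with palmitate, grouped by the sample titles. The authors deposited 1 linear signal intensity for each probe set, quantified with MAS 5.0 per the series' design text. Its settings are not given in the sources used here, and neither detection calls nor scan dates entered the work. The 2% trimmed mean was 1500.5 to 1500.56 on every array, so the authors' values were already scaled to equal average signal, which hides a shift of most transcripts in 1 direction.

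The table held 22690 probe sets, 64 of them array controls. The platform annotation gave 20380 of the others 1 symbol, 691 several and 1555 none, and only the first were named; Ero1l was matched to the symbol Ero1a as a RefSeq synonym. Signals were taken as log2 with no offset, and the brightest 13575 probe sets, those past the 40th percentile of the mean (a signal of 267.1), were fitted with limma 3.58.1 (lmFit, eBayes with an intensity trend) in R 4.3.3, with Benjamini-Hochberg adjustment over all of them, two-sided, at 0.05. The fit left 4 residual degrees of freedom and 7.98 from the prior, with a median SE of 0.22, and precision is limited by having 3 arrays a group. The code was tested on simulated data. Lists were described by counts and medians. Named genes were every probe set of the 10 genes and, of each other list, up to 4 called genes with the smallest p and any exceptions numbering 5 or fewer. Some further called genes with unstable calls were also named. The 10 genes and the lists were chosen with earlier results of these data known. Alternatives changed the scaling, filter, offset, variance prior, choice of probe set, block and each array in turn.

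No block was used, since the replicate numbers are not stated to mark a shared culture or day. Correlations of deviations between same-numbered arrays were -0.23, -0.13 and 0.01 for numbers 1, 2 and 3. Deviations from a mean of 3 arrays cannot settle whether the arrays were paired. Promoters came from RefSeq, GRCm38.p6. Protein features of the 10 genes were not analysed here.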

Additional observations from a re-analysis of the deposited data

How the results depend on the processing

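Over the 16 alternatives, the number of the 10 genes called higher ran from 6, with hybridisation control scaling, to 10, and 0 were called lower in any of them. Their median log2 fold change ran from 0.63 to 1.07. Leaving out each array in turn gave 8 to 10 genes and medians of 0.90 to 1.06. Probe sets of these genes called higher numbered 12 to 18. The Spearman correlation of fold change with basal signal ran from -0.55 to -0.38 over 20 values, other measures of basal signal included. Over 9 pairs of arrays the correlation ran from -0.75 to -0.41. Hybridisation control scaling gave 404 probe sets higher and 3169 lower over the whole array, in place of 1172 and 1437, and 11 higher and 23 lower of the 69 other ER genes. Leaving out 1 array gave 746 to 1085 probe sets higher and 833 to 1282 lower, the lowest of both without BSA replicate 2, and 11 to 16 of the other ER genes higher, the lowest without BSA replicate 3. With the replicate number as a block, 9 of the 10 genes and 17 of their probe sets were called higher, with 855 higher and 1118 lower over the array and 13 higher and 8 lower of the other ER genes; the numbers share no stated culture or day. The planned list of lumenal proteins with a retrieval signal and the protein features were not run, since no protein sequences were used here. With no detection calls, the distance of dim probe sets from background is unknown.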
